A study of Mus musculus with 6 samples.

Results

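Collagens are encoded by genes whose symbols name the type and the chain, so that Col1a1 and Col1a2 give the alpha 1 and alpha 2 chains of type I collagen. The collagen chain genes were taken as every row of the count table whose Ensembl identifier carried a protein-coding symbol of that form in the GENCODE M21 annotation. They numbered 44 of the 43346 rows, 11 for fibrillar collagens and 33 for network-forming and all other collagens. They were followed in primary mouse embryonic fibroblasts of the C57BL/6 strain at passage 9, cultured in serum-containing medium with nonessential amino acids and 2-mercaptoethanol. Cells of one group were given 3 µM erastin for 24 h, and cells of the other received DMSO, the solvent. Erastin inhibits the cystine/glutamate antiporter and is used to bring about ferroptosis, an iron-dependent cell death with lipid peroxidation. Each group had 3 RNA sequencing libraries, made from ribosome-depleted RNA and read on an Ion Proton instrument. The labels do not say whether the libraries of a group came from separate embryos or separate cultures, so p-values measure the spread between these libraries, which may be technical.

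Collagen chains wind around each other in a triple helix, which needs a glycine at the start of each Gly-X-Y triplet. Fibrillar collagens such as types I, III and V assemble into the cross-striated fibrils of skin, tendon and bone, type IV forms the sheet-like network of basement membranes, and type VI forms beaded microfilaments. Fibroblasts are the main source of fibrillar collagen in connective tissue. New chains are hydroxylated, folded and paired in the endoplasmic reticulum, exported in large carriers, trimmed of their propeptides outside the cell and crosslinked by lysyl oxidases.

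The libraries held 13333911 to 20509970 counts, and 3 counts, taken as the smallest detectable amount, were worth 0.14 to 0.234 CPM, the unit of counts scaled by library size with TMM factors. Intervals on counts and this floor cover counting error only. DMSO replicate 3 stood apart for these genes. It was the highest of the 3 DMSO libraries for 29 of the 34 collagen genes that could be tested, against 35.9% of all 14000 genes tested, and the counts of genes that passed or were separated and the summed level are therefore given with and without it. Of 10 fibroblast markers, 7 passed the test as lower with erastin (edgeR, adjusted p under 0.05) and 0 as higher. Over all genes tested, 21.5% passed as lower and 21.6% as higher. The 10 markers summed to 14381 to 15780 CPM in DMSO and 13363 to 13779 CPM in erastin libraries. None of the 10 was under 1 CPM in all libraries. Pdgfra, Pdgfrb and Thy1, surface proteins of fibroblasts, were among the 7. Among markers of other cells, 2 of 5 osteoblast, 1 of 6 epithelial and 4 of 5 macrophage genes had enough counts for the test. None of these passed, and the 3 lists summed to at most 36.9, 3.25 and 17.0 CPM in any library. Of 4 muscle markers only Des was tested, and it was higher (list sum 35.7 to 45.3 CPM with DMSO, 65.1 to 68.4 with erastin). Of 4 neural markers only Tubb3 was tested, and it was lower (list sum 56.6 to 81.7 and 37.4 to 46.2 CPM). The part of these shifts in the collagen results was not tested.

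The glycine repeat can be read directly from the coding sequences. All 44 genes had a run of at least 20 repeats that each start with a glycine codon (GGN), which 63 of 21142 protein-coding mouse genes had (0.298%). The longest run had 216 to 344 repeats in the 11 fibrillar genes (median 338) and 23 to 113 in the other classes (median 45). The repeat was broken into several such runs in many genes of the other classes. It was broken into 2 in the fibrillar genes Col2a1, Col24a1 and Col27a1. The following stretches of 81 bases are written 5′ to 3′ from the GENCODE M21 coding sequences on GRCm38. Capitals mark the GGN codons that open a repeat of the run, and other GGN codons are in lower case. The stretches show a run's start in 3 fibrillar chains that behaved differently with erastin and a run's end in a basement membrane chain. They cover codons 168 to 194 of Col1a1 (chr11:94936224-94953042, plus strand), 559 to 585 of Col5a1 (chr2:27886425-28039514, plus strand), 568 to 594 of Col24a1 (chr3:145292472-145552011, plus strand) and 145 to 171 of Col4a1 (chr8:11198423-11312826, minus strand), where the coordinates are those of the whole gene.
Col1a1: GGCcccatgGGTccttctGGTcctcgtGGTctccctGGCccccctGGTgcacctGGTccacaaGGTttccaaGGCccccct
Col5a1: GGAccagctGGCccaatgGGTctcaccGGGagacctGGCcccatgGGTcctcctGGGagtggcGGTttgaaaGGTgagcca
Col24a1: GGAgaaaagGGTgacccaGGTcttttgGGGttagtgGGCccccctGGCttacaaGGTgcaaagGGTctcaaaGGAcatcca
Col4a1: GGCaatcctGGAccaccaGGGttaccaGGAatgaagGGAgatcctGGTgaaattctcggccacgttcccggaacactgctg
In Col1a1, Col5a1 and Col24a1 every repeat shown opens with GGN, whereas in Col4a1 the run ends after the sixth repeat of the stretch. Exons of 54 bases, a hallmark of fibrillar collagen genes, numbered 21 to 33 per fibrillar gene and 0 to 28 in the other classes.

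Most collagen genes that changed were lower with erastin. Of the 34 genes with enough counts to be tested, 24 passed an adjusted p of 0.05 (edgeR quasi-likelihood test), 21 of them lower and 3 higher with erastin. Over all 14000 genes tested, 43.1% passed, 21.5% as lower and 21.6% as higher. The median log2 fold change was -0.45 over the 34 collagen genes and -0.0014 over all genes. The 3 erastin libraries lay on 1 side of the 3 DMSO libraries for 23 of the 34 genes, 19 lower and 4 higher, against 52.5% of all genes (25.9% lower and 26.7% higher). Without DMSO replicate 3, 21 of 35 tested genes passed, 16 lower and 5 higher, with a median of -0.27. In that fit 5809 genes passed in all, against 6028 with all 6 libraries. Without that library 26 of the 34 collagen genes were separated, 19 lower and 7 higher, against 61.5% of all genes (30.6% lower and 30.8% higher). In bulk RNA, fewer cells that make a chain and less of its RNA per cell cannot be told apart.

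**Figure D1:**
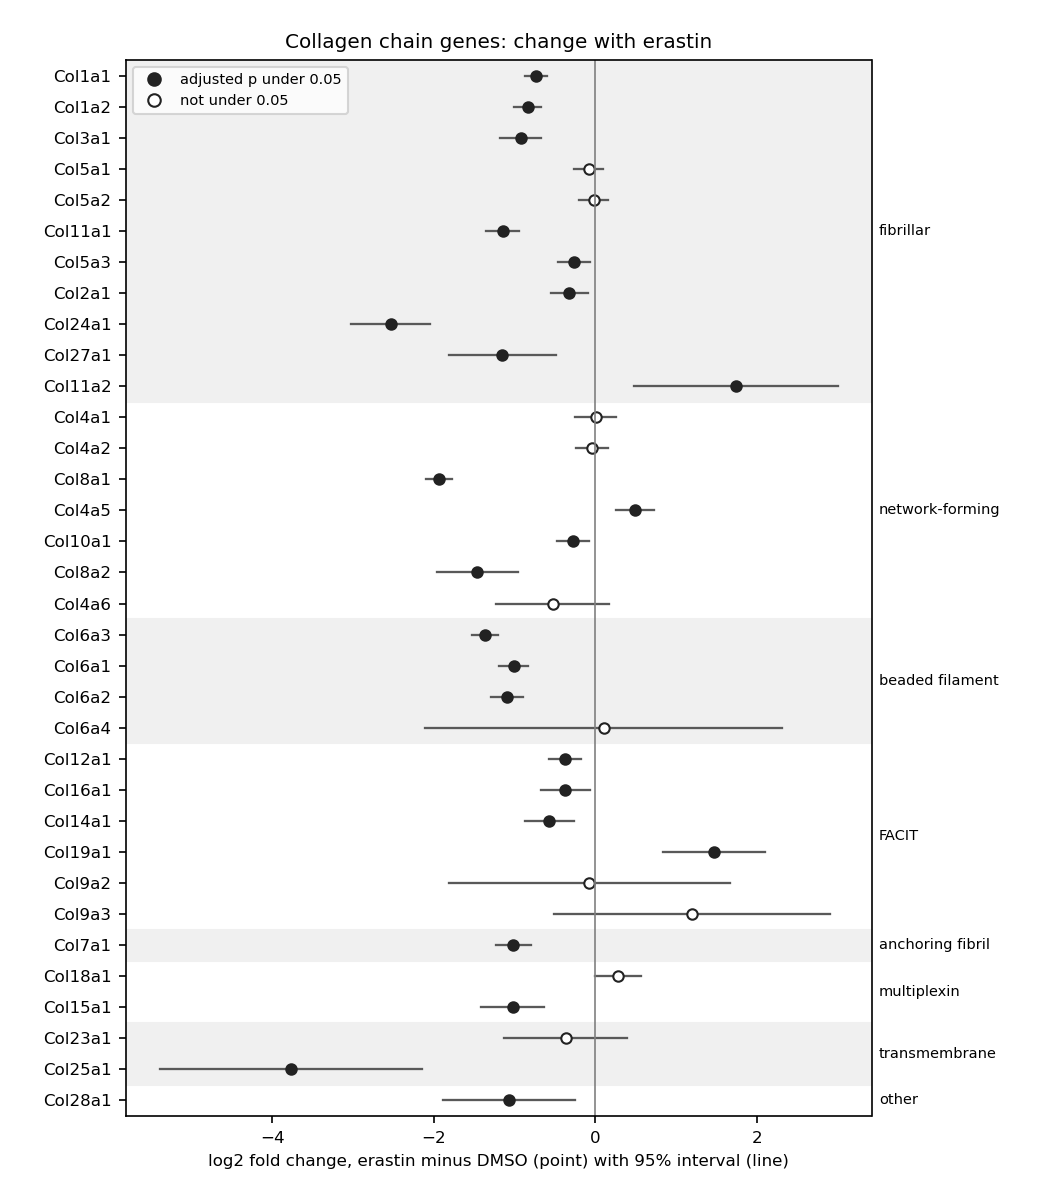
Log2 fold change of the 34 tested collagen genes, erastin minus DMSO (horizontal axis), one row per gene grouped by collagen class; points are edgeR estimates, lines their 95% intervals, and filled points passed an adjusted p of 0.05. Of the 24 filled points, 21 lie left of 0, and those of Col19a1, Col4a5 and Col11a2 lie right of it.

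Fibrillar collagens were tested in full. All 11 passed the filter on low counts, and 8 fell, 1 rose and 2 did not pass the test, with a median log2 fold change of -0.73. Without DMSO replicate 3 6 passed as lower and 1 as higher, and the median was -0.70. Type I collagen, the main component of fibrils in skin, tendon and bone, was the most counted. Col1a1 had 10842, 10630 and 11457 CPM in DMSO replicates 1 to 3 and 6306, 6776 and 6738 CPM in erastin replicates 1 to 3. Every erastin library lay far below every DMSO library, and the fall to 60.2% of the DMSO level passed the test (log2 fold change -0.73 with SE 0.06; adjusted p = 2.65e-07 by edgeR). Its partner Col1a2 had 8064, 8028 and 8213 CPM with DMSO and 4384, 4047 and 5174 CPM with erastin. Its groups were as clearly separated (log2 fold change -0.84 with SE 0.08; adjusted p = 9.61e-07 by edgeR). Col3a1, the single chain of type III collagen, which forms mixed fibrils with type I in elastic tissues, had 3143, 3614 and 3964 CPM with DMSO and 1795, 1538 and 2316 CPM with erastin. Erastin replicate 3 was the highest of its group for both Col1a2 and Col3a1 but stayed below all DMSO libraries (Col3a1 log2 fold change -0.92, SE 0.12, edgeR adjusted p = 2.08e-05).

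**Figure D2:**
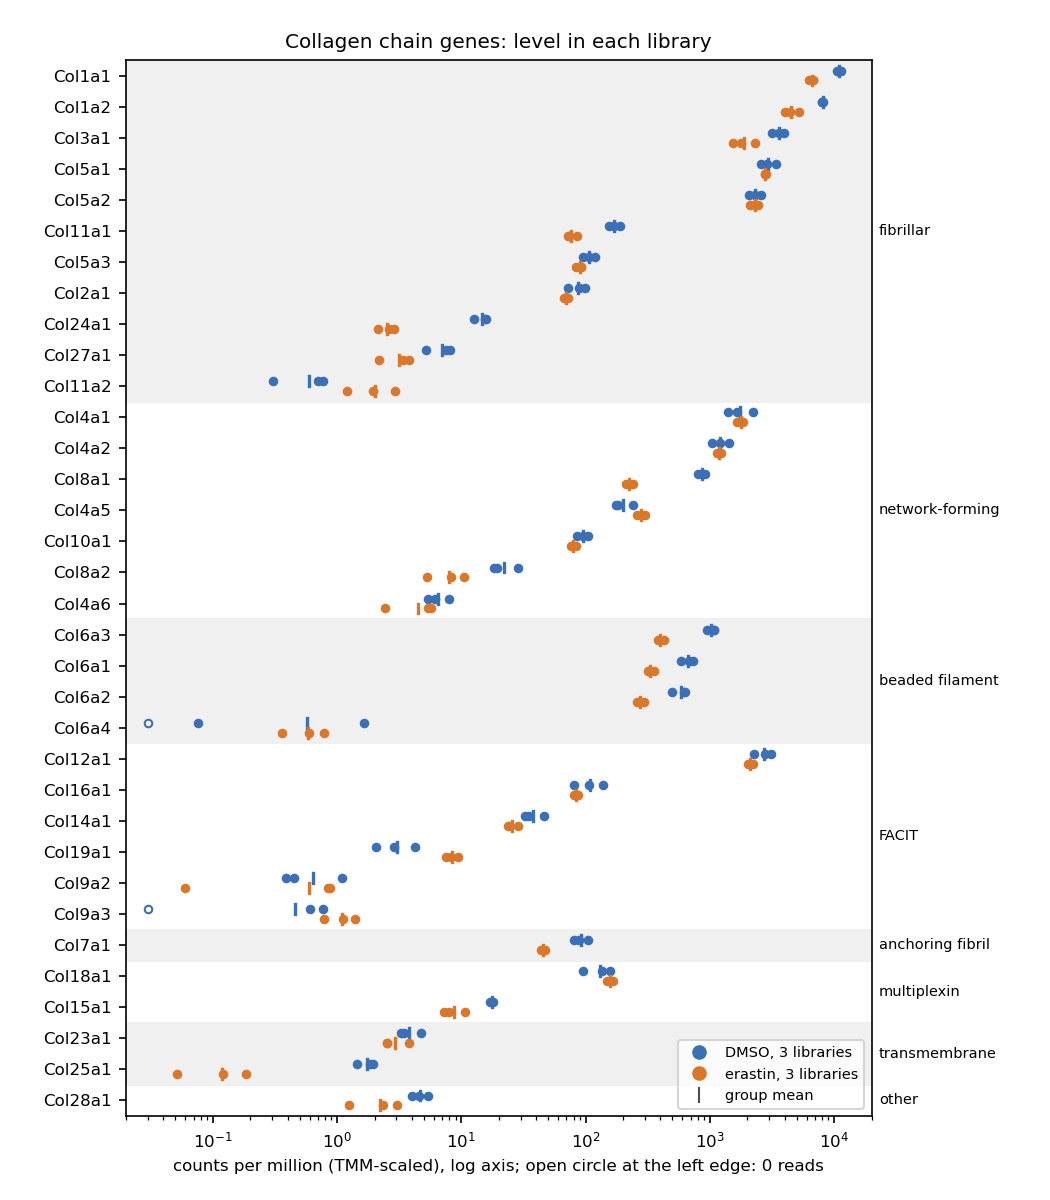
Level of the 34 tested collagen genes in each library, as TMM-scaled CPM on a log axis, grouped by collagen class; blue points are the 3 DMSO libraries, orange points the 3 erastin libraries, and ticks the group means. Levels span from Col1a1, with means of 10976 and 6607, to genes under 1 CPM such as Col6a4 and Col9a2.

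Type V collagen, which joins type I in the same fibrils and sets their width, stood beside these falls with little difference between groups. Col5a1 had 2566, 2899 and 3395 CPM with DMSO and 2795, 2815 and 2770 CPM with erastin. The erastin libraries lay close together inside the range of the DMSO libraries (log2 fold change -0.08, 95% interval -0.26 to 0.10, edgeR adjusted p = 0.48). Col5a2 had 2064, 2324 and 2578 CPM with DMSO and 2311, 2116 and 2448 CPM with erastin, which again overlapped (log2 fold change -0.02, 95% interval -0.20 to 0.16, edgeR adjusted p = 0.879). Both intervals exclude a fall as large as that of Col1a1. For both genes the sign of the small difference changed with the settings. The third type V chain, Col5a3, was at 107 ± 11.2 CPM with DMSO and 89.5 ± 5.03 CPM with erastin (SD, n = 3 each; edgeR adjusted p = 0.0348). That call held in 5 of 15 alternative settings only, and without DMSO replicate 3 the adjusted p was 0.131.

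Type XI collagen is the counterpart of type V in cartilage fibrils, where it lies beside type II. Col11a1 had 154, 168 and 188 CPM with DMSO and 73.1, 72.0 and 84.9 CPM with erastin. It fell to 45.2% of the DMSO level with no overlap (log2 fold change -1.15 with SE 0.10; adjusted p = 2.64e-07 by edgeR). Col11a2 moved the other way at a level near the detection limit, with 0.302, 0.776 and 0.701 CPM in DMSO and 1.96, 2.93 and 1.19 CPM in erastin libraries. The groups were separated (edgeR adjusted p = 0.0266), and the call held in 11 of 15 alternatives. Col2a1, the cartilage collagen, was at 87.0 ± 13.7 CPM with DMSO and 69.6 ± 2.83 CPM with erastin (SD, n = 3 each; edgeR adjusted p = 0.0267). The lowest DMSO library, at 72.4 CPM, overlapped the highest erastin library, at 72.6 CPM, and the call held in 7 of 15 alternatives, with an adjusted p of 0.12 without DMSO replicate 3. Of 7 chondrocyte markers, 3 were tested. Sox9, a transcription factor of chondrocytes, was higher with erastin (16.2 to 23.4 CPM with DMSO, 57.6 to 95.8 CPM with erastin), and Matn3 was lower. Matn1, Hapln1 and Cnmd were under 1 CPM in all libraries and Acan reached at most 1.71 CPM. The summed level of the 7 was 22.7 to 35.9 CPM with DMSO and 63.8 to 102 CPM with erastin. Sox9 carried this rise. Comp, next in level, was at 5.82, 8.59 and 8.80 CPM with DMSO and 4.70, 5.87 and 5.70 CPM with erastin. It did not pass (edgeR adjusted p = 0.116). The part of these markers in the Col2a1, Col11a1 and Col11a2 values was not tested.

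Types XXIV and XXVII are fibrillar collagens with an interrupted repeat. Col24a1 and Col27a1 each had 2 runs of at least 20 repeats, with 309 and 310 repeats in all. Their longest runs had 216 and 217 repeats, whereas Col1a1 had 338 in 1 run. Col24a1 had 12.7, 15.8 and 15.6 CPM with DMSO and 2.61, 2.87 and 2.13 CPM with erastin. Its 17.3% of the DMSO level was the largest fall among the fibrillar genes (log2 fold change -2.53 with SE 0.23; adjusted p = 5.89e-07 by edgeR). Col27a1 fell from 8.08, 7.48 and 5.22 CPM to 3.77, 3.41 and 2.18 CPM (log2 fold change -1.15 with SE 0.31; adjusted p = 0.00763 by edgeR). Here DMSO replicate 3 was the lowest of its group, unlike in most other chains.

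Among the 33 other collagen genes, 23 were tested, of which 13 fell, 2 rose and 8 did not pass, with a median of -0.37. Without DMSO replicate 3 10 passed as lower and 4 as higher, and the median was -0.24. The network-forming class held chains on both sides. Col4a1 and Col4a2, which together form the common type IV collagen of basement membranes, did not pass. Col4a1 had 1409, 1654 and 2225 CPM with DMSO and 1842, 1796 and 1668 CPM with erastin (log2 fold change 0.0052, 95% interval -0.25 to 0.26, edgeR adjusted p = 0.977). The erastin values fell inside the wide DMSO range, whose top was replicate 3, and without that library the log2 fold change was 0.21 (adjusted p = 0.0577). Col4a2 had 1034, 1197 and 1416 CPM with DMSO and 1184, 1231 and 1131 CPM with erastin, also overlapping (log2 fold change -0.04, 95% interval -0.24 to 0.16, edgeR adjusted p = 0.76). The sign of both differences changed with the settings.

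Col4a5, a type IV chain of kidney, muscle and skin basement membranes, rose. It had 183, 174 and 243 CPM with DMSO and 285, 258 and 300 CPM with erastin, with no overlap (log2 fold change 0.49 with SE 0.11; adjusted p = 0.00196 by edgeR). Its partner Col4a6 had 6.12, 5.43 and 7.94 CPM with DMSO and 5.68, 5.39 and 2.44 CPM with erastin and did not pass (edgeR adjusted p = 0.218). Of 5 endothelial markers 3 were tested, and Kdr and Tek, receptors of endothelial cells, were higher with erastin. The 5 endothelial markers summed to 5.10 to 7.71 CPM with DMSO and 14.1 to 17.4 CPM with erastin, and Pecam1 and Cdh5 were under 1 CPM in all libraries. The part of this in the Col4a5 value was not tested.

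Type VIII collagen forms hexagonal networks, known from the cornea and from vessel walls. Col8a1 had 860, 807 and 917 CPM with DMSO and 223, 212 and 240 CPM with erastin. This fall to 26.1% had the smallest p of all collagen genes (log2 fold change -1.94 with SE 0.07; adjusted p = 2.75e-10 by edgeR). Col8a2 fell from 19.4, 18.4 and 28.8 CPM to 8.24, 5.33 and 10.5 CPM (log2 fold change -1.46 with SE 0.24; adjusted p = 0.000161 by edgeR). Col10a1, the collagen of hypertrophic cartilage, was at 95.5 ± 9.25 CPM with DMSO and 79.0 ± 3.82 CPM with erastin (SD, n = 3 each; edgeR adjusted p = 0.0256). That call held in 10 of 15 alternatives, and its adjusted p was 0.0946 without DMSO replicate 3. The exons of Col10a1 overlap those of Nt5dc1 on the other strand over 0.575% of their length. Overlap with introns of other genes was not examined, and whether the counting used strand is not given.

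The 3 main chains of the beaded-filament type VI, which surrounds many cell types, fell together. Col6a1 had 586, 682 and 734 CPM with DMSO and 323, 320 and 352 CPM with erastin (log2 fold change -1.01, SE 0.08). Col6a2 had 495, 620 and 636 CPM with DMSO and 259, 268 and 293 CPM with erastin (log2 fold change -1.09, SE 0.09). Col6a3, the longest of the 3, had 940, 1079 and 1070 CPM with DMSO and 384, 389 and 424 CPM with erastin (log2 fold change -1.37, SE 0.07). No group overlapped in any of them, and the edgeR adjusted p-values were 2.65e-07, 2.79e-07 and 4.82e-09. Col6a4 lay at 0.0756, 0 and 1.63 CPM with DMSO and 0.791, 0.599 and 0.363 CPM with erastin (edgeR adjusted p = 0.946), and nearly all DMSO counts came from replicate 3. Without that library the other DMSO libraries held 1 count between them, and the gene passed as higher with erastin (edgeR adjusted p = 0.0259).

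Collagens of the FACIT class have interrupted helices and sit on the surface of fibrils. Col12a1, by far the most counted of them, had 2273, 2803 and 3126 CPM with DMSO and 2092, 2032 and 2216 CPM with erastin. It fell to 77.3% (log2 fold change -0.37 with SE 0.09; adjusted p = 0.00498 by edgeR), with a narrow gap between the lowest DMSO and the highest erastin library. Col14a1, a fibril-associated chain of dense connective tissue, was at 37.8 ± 7.12 CPM with DMSO and fell to 25.5 ± 2.58 CPM with erastin (SD, n = 3 each; edgeR adjusted p = 0.0044). Col16a1 passed narrowly (edgeR adjusted p = 0.046) although its groups overlapped, at 81.4, 106 and 138 CPM with DMSO and 85.1, 87.4 and 80.0 CPM with erastin, and the call held in 7 of 15 alternatives. Without DMSO replicate 3 its adjusted p was 0.267.

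Col19a1 was the FACIT chain that rose. It had 2.87, 2.05 and 4.20 CPM with DMSO and 8.19, 9.34 and 7.57 CPM with erastin, a 2.78-fold difference with no overlap (log2 fold change 1.47 with SE 0.30; adjusted p = 0.000976 by edgeR). Col9a2 and Col9a3, chains of the cartilage type IX, were at or under 1.40 CPM in every library and did not pass (edgeR adjusted p = 0.953 and 0.24). The exons of Col9a3 overlap those of Tcfl5 on the other strand over 6.07% of their length, and whether the counting used strand is not given in the sources used here.

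The remaining classes were mostly lower as well. Col7a1, the anchoring fibril that ties the epidermis to the dermis, had 80.4, 88.7 and 104 CPM with DMSO and 46.7, 45.2 and 43.6 CPM with erastin (log2 fold change -1.01 with SE 0.10; adjusted p = 1.68e-06 by edgeR). The 2 multiplexins, basement membrane collagens with many interruptions, parted. Col15a1 fell from 17.2, 17.6 and 18.1 CPM to 8.01, 7.30 and 10.7 CPM (log2 fold change -1.02 with SE 0.18; adjusted p = 0.000393 by edgeR). Col18a1, whose C-terminal fragment is endostatin, was at 95.2, 136 and 158 CPM with DMSO and 158, 150 and 165 CPM with erastin and did not pass (log2 fold change 0.28, edgeR adjusted p = 0.105). It passed as higher in 6 of 15 alternatives, among them the fit without DMSO replicate 3 (log2 fold change 0.44, adjusted p = 0.00838) and the one corrected for GC content and transcript length (0.45, adjusted p = 0.00597).

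Of the transmembrane collagens, Col25a1 fell at a low level. Its 3 DMSO libraries together held 77 counts and the erastin libraries 7, which after scaling was 14.3-fold lower (95% counting interval 6.63 to 36.8; edgeR adjusted p = 0.000566). Col23a1 did not pass, at 3.81 ± 0.817 CPM with DMSO and 2.94 ± 0.718 CPM with erastin (SD, n = 3 each; edgeR adjusted p = 0.437). Col28a1, a collagen known from peripheral nerve, was at 4.64 ± 0.688 CPM with DMSO and 2.20 ± 0.882 CPM with erastin (SD, n = 3 each; edgeR adjusted p = 0.0346). That call held in 11 of 15 alternatives, and without DMSO replicate 3 the edgeR adjusted p was 0.0834.

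The other 10 genes had too few counts for a test: Col20a1, Col22a1 and Col9a1 (FACIT), Col4a3 and Col4a4 (type IV of the kidney filter), Col6a5 and Col6a6 (type VI), Col13a1 and Col17a1 (transmembrane, the second a hemidesmosome protein), and Col26a1. Their mean counts per library were 1.67 to 12.3. The highest was Col20a1, with 6, 0 and 7 counts in DMSO and 23, 28 and 10 counts in erastin libraries. With no filter on low counts none of the 10 passed. Col4a3 had 9, 4 and 21 counts in DMSO and 3, 1 and 2 counts in erastin libraries, and it passed when DMSO replicate 2 was left out. Its exons overlap C430014B12Rik on the other strand over 5.65% of their length.

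Of the 24 calls, 18 held in all 15 alternative settings. They comprised Col1a1, Col1a2, Col3a1, Col11a1, Col24a1 and Col27a1 among the fibrillar genes, and Col4a5, Col6a1, Col6a2, Col6a3, Col7a1, Col8a1, Col8a2, Col12a1, Col14a1, Col15a1, Col19a1 and Col25a1 among the others. The 6 calls lost in at least 1 setting were Col2a1, Col5a3, Col10a1, Col11a2, Col16a1 and Col28a1.

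Added up, collagen transcripts took 3.70% ± 0.23 (SD, n = 3) of all counts with DMSO and 2.59% ± 0.152 (SD, n = 3) with erastin. The summed level was 35253, 37401 and 41032 CPM in DMSO and 24862, 24464 and 26751 CPM in erastin libraries, so that the erastin mean was 66.9% of the DMSO mean, or 69.8% without DMSO replicate 3. No test was made of this sum, which rests largely on type I collagen. Fibrillar genes made up 74.8% ± 1.77 of it with DMSO and 72.3% ± 1.1 with erastin.

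Levels of different genes can be compared only per length. Per kilobase of merged exons, Col1a1 led in DMSO (1672 CPM per kb), followed by Col1a2 (652), Col3a1 (364), Col5a1 (348), Col5a2 (242), Col4a1 (236), Col4a2 (184) and Col12a1 (179.5). With erastin Col1a1 (1007) and Col1a2 (365) kept their places, and the means of Col5a1 (329), Col5a2 (239) and Col4a1 (237) were above that of Col3a1 (192). Several of these genes had overlapping ranges over the libraries. The order changed between libraries for Col5a2 and Col4a1 in both groups, Col4a2 and Col12a1 in DMSO, and Col3a1 and Col4a1 with erastin. Within each library, Col3a1 was above Col5a1 with DMSO and Col5a2 above Col3a1 with erastin. These orders were not tested. Per kilobase of the longest transcript instead, Col3a1 (338) lay between Col5a2 (346) and Col5a1 (332) and above Col4a1 (267) with erastin. Col8a1 was at 110 CPM per kb with DMSO and 28.7 with erastin.

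The make-up of the summed level per kilobase shifted accordingly. Col5a1 made up 7.27%, 7.79% and 8.27% in DMSO and 11.2%, 11.3% and 10.4% in erastin libraries. Col4a1 made up 5.25% ± 0.828 with DMSO and 7.91% ± 0.675 with erastin (SD, n = 3 each). Col1a1 made up 37.6% ± 1.91 and 33.6% ± 1.43, and Col8a1 2.47% ± 0.152 and 0.957% ± 0.0278. Col5a1, Col5a2, Col4a1 and Col4a2 thus had larger shares of a smaller sum, while the differences in their own levels did not pass the test. A share depends on all other members, and these shares are a description without a test.

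**Figure D3:**
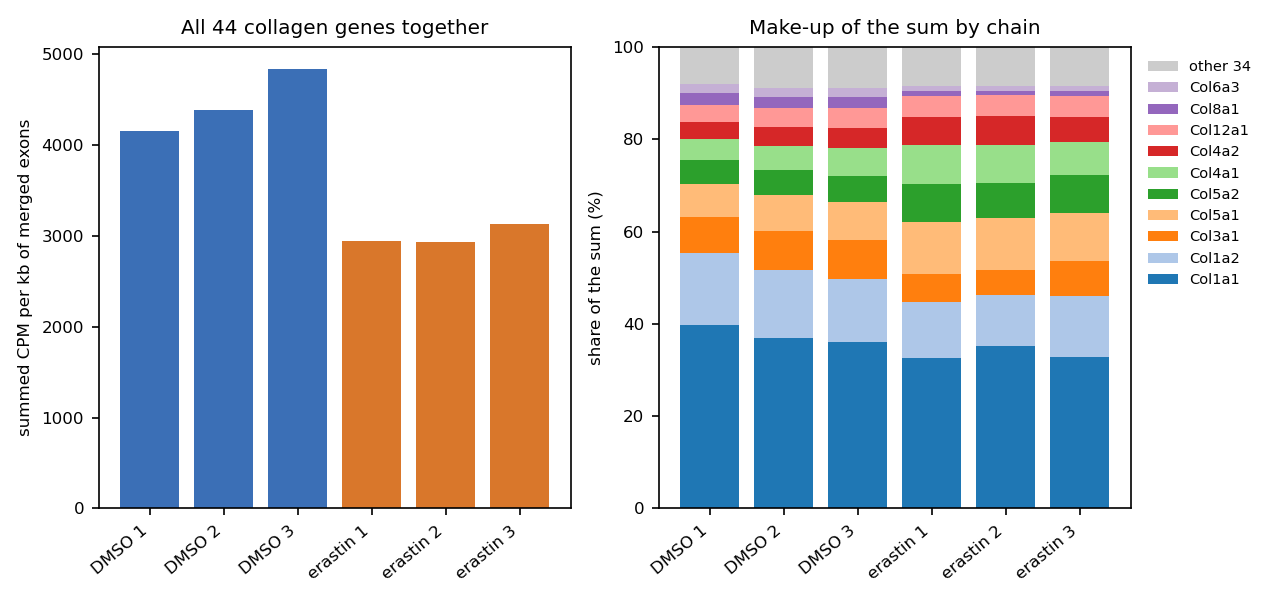
Left, the summed level of all 44 collagen genes in each library, in CPM per kilobase of merged exons; right, the percent of that sum that each of the 10 genes with the most CPM in DMSO (not per kilobase) and the other 34 together made up, one bar per library. The sum is 4156 to 4836 in the DMSO libraries and 2932 to 3130 in the erastin libraries, with larger shares of Col5a1, Col5a2, Col4a1 and Col4a2 in the latter.

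Ratios of levels per kilobase within each library were taken for chains that share a molecule or lie side by side in the genome. Col3a1 and Col5a1, chains of other types that enter the same fibrils as type I, were each also set against Col1a1. With 3 libraries against 3, the exact permutation test cannot give a two-sided p below 0.1, and after adjustment over the 10 ratios the smallest was 0.2, so none could pass. The type I ratio Col1a1 to Col1a2 was 2.55, 2.51 and 2.64 with DMSO and 2.72, 3.17 and 2.47 with erastin, which overlapped (exact permutation p = 0.5). Counted per kilobase of the longest transcript, its means were 1.22 and 1.33, since the merged exons of Col1a2 span 12426 bases and its longest transcript 5348. The ratios Col4a1 to Col4a2 and Col5a1 to Col5a2 overlapped too, with log2 differences of 0.06 and -0.06.

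In 5 of the 10 ratios the groups did not overlap. The groups were also separated for 52.5% of all single genes, and no share over other pairs of genes was computed. Col5a1 to Col1a1 was 0.183, 0.211 and 0.229 with DMSO and 0.343, 0.321 and 0.318 with erastin, with no overlap (log2 difference 0.66, exact permutation p = 0.1). Col11a1 to Col5a1, 2 chains that can enter the same trimer, was 0.0399, 0.0386 and 0.0369 with DMSO and 0.0174, 0.0170 and 0.0204 with erastin (log2 difference -1.08, exact permutation p = 0.1). Within type VI, Col6a3 to Col6a1 was 0.588, 0.579 and 0.534 with DMSO and 0.435, 0.446 and 0.441 with erastin (log2 difference -0.36, exact permutation p = 0.1). Col6a1 to Col6a2 (log2 difference 0.08) and Col4a5 to Col4a6 (1.11) were the other ratios without overlap, the second with 1 erastin library at 146 and the other two at 59.6 and 56.9.

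**Figure D4:**
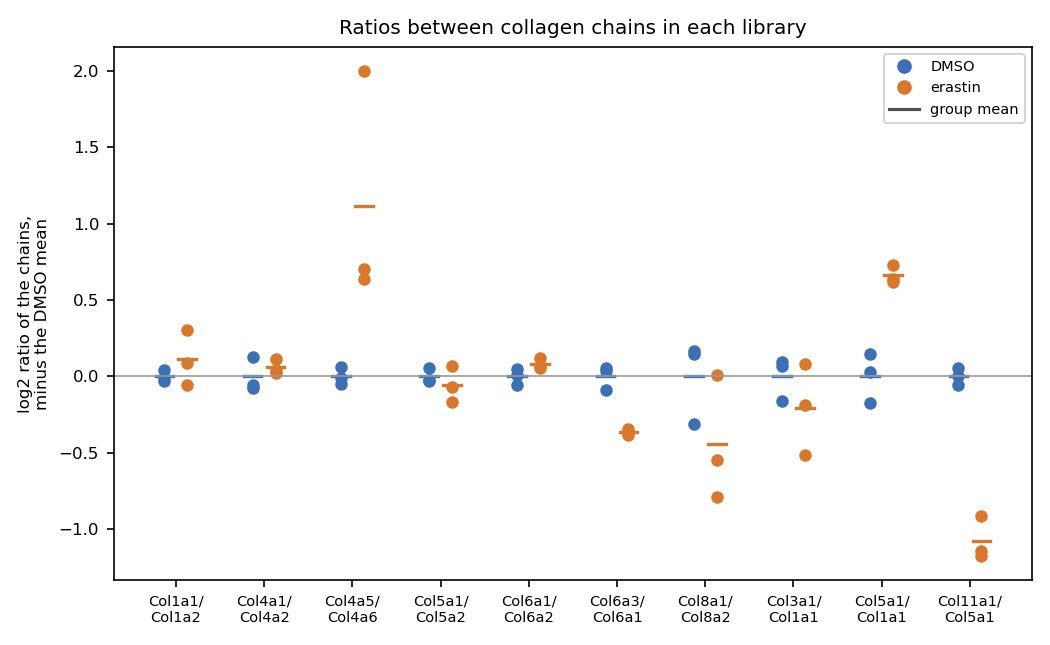
Log2 ratio of 10 pairs of collagen chains in each library, each minus the mean of the 3 DMSO libraries (vertical axis); blue points are DMSO, orange points erastin libraries, and bars the group means. Col5a1/Col1a1 lies above its DMSO points at 0.66 and Col11a1/Col5a1 below at -1.08, while Col1a1/Col1a2, Col4a1/Col4a2 and Col5a1/Col5a2 overlap.

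Several of the genes are neighbours, and neighbours did not always have like values. Col3a1 and Col5a2 lie 24614 bases apart on chromosome 1 with their ends facing each other, at chr1:45311538-45349706 (plus strand) and chr1:45374321-45503282 (minus strand). Col3a1 had a log2 fold change of -0.92 and Col5a2 of -0.02. Col4a1 and Col4a2 start from opposite strands with 22 overlapping bases and had 0.0052 and -0.04. Col4a5 and Col4a6, 1308 bases apart on the X chromosome and also starting away from each other, had 0.49 and -0.52. Col6a1 and Col6a2, on the same strand of chromosome 10 and 85161 bases apart, had -1.01 and -1.09.

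A promoter window of 300 bases, 250 before and 50 after the annotated start, was found in the RefSeq table (GRCm38.p6) for 35 of the 44 genes, Col1a1 not among them, with 38 windows in all. The windows of Col1a2 and Col3a1 are shown for chains of types I and III, which fell, those of Col24a1 and Col19a1 as the largest fall and the largest rise among genes that passed and held 50 or more counts per library on average, and that of Col4a1, chosen after its values were seen, because it lies against that of Col4a2. They are written 5′ to 3′ on the strand of the gene, and capitals mark the CCAAT box, the TATA box written TATAAA and the GC box written GGGCGG, on either strand and without overlap. Their positions are chr6:4505368-4505667 (Col1a2, plus strand), chr1:45311288-45311587 (Col3a1, plus strand), chr3:145292222-145292521 (Col24a1, plus strand), chr1:24587388-24587687 (Col19a1, minus strand) and chr8:11312777-11313076 (Col4a1, minus strand).
Col1a2: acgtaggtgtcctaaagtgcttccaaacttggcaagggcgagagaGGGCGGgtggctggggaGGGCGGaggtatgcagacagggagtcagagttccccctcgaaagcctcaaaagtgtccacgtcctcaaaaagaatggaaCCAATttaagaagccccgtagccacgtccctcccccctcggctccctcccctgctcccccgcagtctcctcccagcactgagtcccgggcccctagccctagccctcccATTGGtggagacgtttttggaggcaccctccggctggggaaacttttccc
Col3a1: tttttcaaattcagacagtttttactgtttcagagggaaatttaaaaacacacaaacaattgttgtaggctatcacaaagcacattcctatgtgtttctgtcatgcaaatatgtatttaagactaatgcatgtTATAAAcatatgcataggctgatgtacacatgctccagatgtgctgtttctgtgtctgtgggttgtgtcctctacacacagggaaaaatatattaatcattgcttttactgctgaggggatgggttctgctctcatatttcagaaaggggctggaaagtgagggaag
Col24a1: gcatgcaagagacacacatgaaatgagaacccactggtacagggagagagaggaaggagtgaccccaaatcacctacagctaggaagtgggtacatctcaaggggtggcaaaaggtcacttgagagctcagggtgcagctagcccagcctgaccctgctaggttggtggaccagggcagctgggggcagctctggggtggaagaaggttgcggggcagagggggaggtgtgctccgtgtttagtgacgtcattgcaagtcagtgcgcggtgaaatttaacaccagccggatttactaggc
Col19a1: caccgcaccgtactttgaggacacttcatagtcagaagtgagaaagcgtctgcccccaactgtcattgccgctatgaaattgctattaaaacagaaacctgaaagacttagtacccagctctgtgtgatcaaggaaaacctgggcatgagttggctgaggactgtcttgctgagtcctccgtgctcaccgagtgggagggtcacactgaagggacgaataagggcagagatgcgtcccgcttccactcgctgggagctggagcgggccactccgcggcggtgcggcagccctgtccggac
Col4a1: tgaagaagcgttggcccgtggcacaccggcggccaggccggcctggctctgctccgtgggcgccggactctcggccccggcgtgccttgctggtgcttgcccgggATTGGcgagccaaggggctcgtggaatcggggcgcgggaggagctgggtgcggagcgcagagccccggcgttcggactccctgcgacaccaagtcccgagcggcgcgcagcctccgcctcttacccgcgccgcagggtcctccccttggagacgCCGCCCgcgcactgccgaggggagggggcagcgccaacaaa
The Col1a2 window held CCAAT and GGGCGG at 2 places each, that of Col3a1 held 1 TATAAA, and that of Col4a1 held 1 CCAAT and 1 GGGCGG. None of the 3 motifs was in the windows of Col24a1 and Col19a1. Of the 38 collagen windows, 13 (34.2%) held CCAAT, 5 (13.2%) TATAAA and 23 (60.5%) GGGCGG, against 37.4%, 13.6% and 35.7% of 32851 promoter windows of all genes. These matches describe the sequence and are not evidence of binding.

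Genes that act on collagen were read from 7 lists with 105 symbols, of which 95 were tested. Enzymes and chaperones that modify and fold the chains were mostly lower. Of 18 tested, 14 fell and 3 rose, with a median log2 fold change of -0.46. P4hb, a subunit of prolyl 4-hydroxylase, had 1335, 1313 and 1264 CPM with DMSO and 632, 663 and 660 CPM with erastin (log2 fold change -1.0 with SE 0.06; adjusted p = 2.04e-08 by edgeR). Fkbp10, a collagen chaperone with prolyl isomerase activity, fell by 0.80 on the log2 scale, from 432 to 468 CPM with DMSO to 248 to 268 CPM with erastin. P3h2, a prolyl 3-hydroxylase that acts mainly on type IV chains, rose from 4.23, 5.54 and 5.92 CPM to 19.2, 18.7 and 23.5 CPM (log2 fold change 1.97 with SE 0.19; adjusted p = 1.3e-06 by edgeR).

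Of 11 tested genes for export from the endoplasmic reticulum, 6 fell and 2 rose (median -0.25). Sec24d and Sar1a, parts of the COPII coat, fell by 0.57 and 0.50 on the log2 scale, and Mia2, a partner of the collagen cargo receptor, rose by 0.77. Of 12 tested genes for removal of propeptides and for crosslinking, 9 fell and 0 rose (median -0.54). Loxl3, a lysyl oxidase, fell by 1.18, Pcolce, an enhancer of the C-propeptidase, by 0.98, and Tll1, a propeptidase, by 0.70 on the log2 scale. Lox, the main crosslinking enzyme, did not pass, at 4246 to 4486 CPM with DMSO and 4299 to 4517 CPM with erastin.

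Among 17 tested proteins that bind fibrils, 10 fell and 1 rose (median -0.52). Prelp and Aspn, small leucine-rich proteoglycans, fell by 1.28 and 1.18 and Sparc, a collagen-binding matrix protein, by 0.74 on the log2 scale. Dcn, Lum and Fn1 of this list are also among the 10 fibroblast markers. Of 8 tested collagen receptors and uptake genes, 3 fell and 2 rose (median -0.02, with a sign that changed with the settings). Itga1 and Itga11, integrin subunits that bind collagen, fell by 1.11 and 0.69, and Mrc2, which takes up collagen for breakdown, fell by 0.74.

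TGF-beta is a strong inducer of collagen genes in fibroblasts, and its 21 tested pathway genes moved in both directions, with 5 lower, 7 higher and a median of -0.06. Tgfb3, one of the ligands, fell from 304 to 388 CPM with DMSO to 110 to 112 CPM with erastin (log2 fold change -1.65, edgeR adjusted p = 3.45e-09). Tgif1, a repressor of the pathway, and Ccn2, a target of it, rose by 1.47 and 1.17 on the log2 scale. Of 8 tested enzymes that degrade collagen and their inhibitors, 2 fell and 0 rose, with a median of -0.0065. Mmp2 and Mmp14, a gelatinase and a membrane-bound collagenase, fell by 0.72 and 0.47, and Ctsk, a collagen-cutting cathepsin, did not pass (edgeR adjusted p = 0.195). Shares called in these lists stand beside the 43.1% of all genes. Without DMSO replicate 3, the lower and higher counts were 14 and 2 for modification and folding, 6 and 3 for export, 8 and 0 for processing and crosslinking, and 9 and 1 for fibril-associated proteins. They were 3 and 1 for receptors and uptake, 5 and 7 for TGF-beta signalling, and 2 and 0 for degradation. In that fit 5809 genes passed in all. With any 1 library left out, 2400 to 2862 of all genes passed as lower and 2402 to 2955 as higher.

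**Figure D5:**
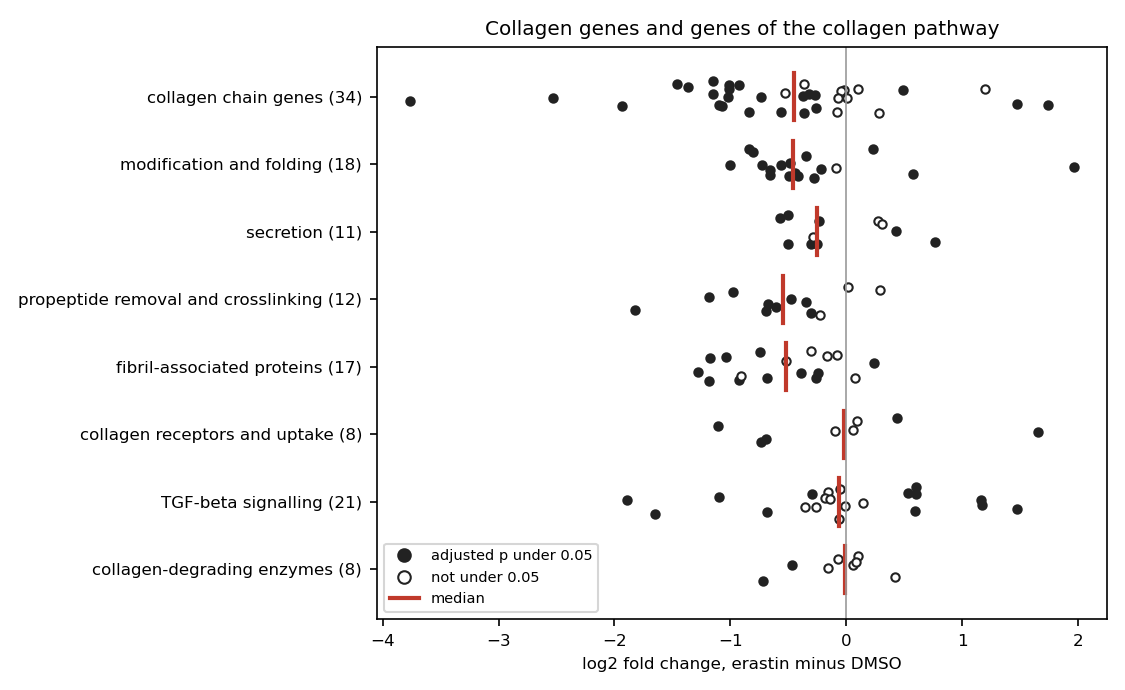
Log2 fold change, erastin minus DMSO, of the collagen chain genes and of 7 lists of genes that act on collagen, one point per tested gene with the number tested in brackets; filled points passed an edgeR adjusted p of 0.05 and red lines are medians. The medians lie at -0.45 for the chains, from -0.54 to -0.25 for modification, export, processing and fibril-associated genes, and from -0.06 to -0.0065 for receptors, TGF-beta signalling and degradation.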

How the data were processed

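Read counts per gene were deposited by the authors as whole numbers for 43346 genes in 6 libraries, without normalization. Per the submitters' processing notes, HTSeq 0.9.1, SAMtools and the mm10 build were used; the aligner, the annotation, the use of strand and the handling of reads with several matches are not given in the sources used here. Identifiers were matched without version to GENCODE M21 (42462 rows with a symbol), and 0 columns of values were left unused. Groups come from the sample titles.

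Counts were analysed with edgeR 4.0.16 in R 4.3.3: filterByExpr (minimum count 10, total 15; 14000 genes), TMM factors, quasi-likelihood test of erastin against DMSO over all 6 libraries, and Benjamini-Hochberg adjustment over all genes, with a threshold of 0.05. CPM are counts scaled by library size with these factors, and levels per kilobase use merged exons. Counting intervals are 95%. Over genes with at least 20 reads, pairs of libraries differed by a chi-square per degree of freedom of 11.0 to 19.2 within a group and 78.0 to 123 across groups. Every library was counted as 1 replicate, although these values cannot show whether the libraries came from separate cultures.

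The members and gene lists were chosen with earlier results of these data known, from general knowledge of collagen biology. Named were all tested members, the untested ones, the 3 smallest p-values of each list, promoters of Col1a2 and Col3a1 and of the largest rise and fall, and the neighbours of these; Dcn, Lum, Fn1, Lox and the markers were named after their values were seen. The 15 alternatives were RLE or upper-quartile factors, total counts, DESeq2 1.42.0, no filter, at least 1 CPM in 3 libraries, a replicate block, an offset for GC content and transcript length (mgcv 1.9.3) with and without that block, and leaving out each of the 6 libraries. The separation of groups and the percent of the summed level without DMSO replicate 3 were added after the data were seen. The fit was tested on simulated counts.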

Additional observations from a re-analysis of the deposited data

How the results depend on the processing

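The counts of collagen genes that passed, in all and by class, stayed within 1.5 times in the fits with other scaling, filters, tools or the offset, from 21 (total counts) to 24, and leaving out 1 library gave 18 (without erastin replicate 1) to 22. Leaving out 1 library moved the number of higher collagen genes from 2 to 5, of fibrillar ones from 0 to 1 and of the others from 2 to 4, and the medians from -0.65 to -0.27 for all and from -0.59 to -0.24 for the non-fibrillar ones, with the value nearest 0 each time without DMSO replicate 3. A filter of 1 CPM gave medians of -0.57 for all and -0.55 for the non-fibrillar genes, no filter gave -0.51 for the latter, and the GC and length offset gave -0.63 for the fibrillar genes; these filters change which genes are tested. The cause of the other shifts was not tested.

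Libraries with equal replicate numbers showed no pairing in the counts. Correlations of their deviations from the group means were 0.06, 0.0034 and -0.0096 across genes. These values cannot show whether the libraries were paired in culture or preparation. With the replicate number as a block, 24 collagen genes passed, 23 of them shared, with Col5a3 lost and Col18a1 gained, and 5882 genes in all.

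With the offset, without and with the block, medians were -0.31 and -0.31 for modification and folding, -0.42 and -0.42 for propeptide removal and crosslinking, and 0.024 and 0.0010 for receptors, 1 receptor gene was higher without the block, and 1 degrading enzyme gene was higher in both. Upper-quartile factors left 0 higher fibril-associated genes. Without a filter medians were -0.67 for fibril-associated and -0.14 for degrading genes. Total counts gave 0.045 for receptors, 0.0064 for TGF-beta signalling and 0.059 for degrading enzymes. Leaving out 1 library gave 1 to 3 higher genes for modification and folding, 0 to 1 for fibril-associated proteins and 1 to 2 for receptors. It gave medians of -0.68 to -0.42 for fibril-associated proteins, -0.17 to 0.0017 for receptors and -0.092 to 0.020 for degrading enzymes.

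Signs of differences that did not pass turned in several chains. Col5a2 was at 0.00044 with no filter and 0.049 with total counts, Col5a1 at 0.0058 and 0.0083 with the offset without and with the block, Col9a2 at 0.26 with the offset and 0.0094 with total counts, Col4a1 at -0.048 with upper-quartile factors, and Col4a2 at 0.11 and 0.11 with the offset and 0.026 with total counts. Leaving out 1 library gave -0.097 to 0.061 for Col5a2, -0.17 to 0.030 for Col5a1, -0.44 to 0.52 for Col9a2, -0.13 to 0.21 for Col4a1, -0.14 to 0.081 for Col4a2 and -0.53 to 3.90 for Col6a4. Genes under about 1 CPM, such as Col9a2 and Col6a4, rest on few counts, which limits what can be said of them.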

Other observations

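Properties of the genes that the choice of members did not use ran only loosely with the change. Over the 34 tested collagen genes, Spearman's rho with the log2 fold change was 0.32 for the GC content of the longest transcript. It was 0.19 for cysteine codons per 100 codons, 0.08 for coding length and 0.02 for the length of the longest glycine run. For the log2 mean CPM in DMSO rho was -0.12. With the fold changes of the GC and length offset, rho was 0.40 for GC content and -0.15 to 0.16 for the other properties. The genes share the same 6 libraries and families of related sequence, and these values are descriptions with no test.

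Col19a1 rose, and it lies 9205 bases from Col9a1, on chromosome 1 with their ends facing. Col9a1 held 1, 12 and 5 counts in DMSO and 3, 1 and 8 counts in erastin libraries and was not tested.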
